A study of Mus musculus with 6 samples.

Results

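Nuclear genes of the oxidative phosphorylation machinery were examined in the livers of 3 mice given ethanol and 3 control mice. The members were the genes that the deposited annotation assigns to the KEGG pathway oxidative phosphorylation and that do not lie on the mitochondrial chromosome, which gave 116 of the 28880 genes in the table. By name they comprised 42 genes of complex I, 4 of complex II, 9 of complex III, 15 of complex IV, 4 complex IV assembly factors (Cox10, Cox11, Cox15 and Cox17), 15 of complex V, 22 of the vacuolar proton pump (V-ATPase), and 5 others (Cycs, Ppa1, Ppa2, Lhpp and Atp4a). All 6 mice were male wild type C57BL/6J animals aged 6 to 8 weeks, and the labels put all libraries in batch 1. The ethanol mice were fasted for 12 h and received 50% (v/v) ethanol by mouth at 6 g/kg in a single dose, and the liver was taken 24 h later. Control mice received no ethanol, and the labels do not say whether they were fasted. Ethanol and fasting therefore cannot be told apart here.

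Oxidative phosphorylation passes electrons from NADH and succinate through complexes I and II, coenzyme Q, complex III, cytochrome c and complex IV to oxygen, and complex V (ATP synthase) uses the resulting proton gradient to make ATP. Most subunits are encoded in the nucleus and imported, while a small set of core subunits of complexes I, III, IV and V is encoded by mitochondrial DNA. Hepatocytes are rich in mitochondria and also oxidise ethanol to acetate, which delivers NADH to this chain. The V-ATPase belongs to the same KEGG pathway but acidifies lysosomes and other vesicles at the expense of ATP.

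Between 60514417 and 74210869 reads per library were counted on genes. In ethanol mice the 100 most abundant genes took 51.4 to 57.6% of the counts, against 44.3 to 46.4% in control mice, and the TMM scaling factors, which correct for such differences in composition, were 0.768 to 0.836 in ethanol mice and 1.26 to 1.27 in control mice. Hepatocyte markers were present throughout, with 7 of 11 higher and 1 lower after ethanol and a summed level of 140230 to 148147 CPM (counts scaled to a common library total, here adjusted by TMM) in ethanol mice against 80960 to 92447 in control mice. All marker calls and sums here use TMM scaling, with which 21.5% of all genes tested were called higher and 21.5% lower. Several of the marker counts below lie near these shares. FPKM divides a count by transcript length and by library total. In FPKM, Hnf4a averaged 100.4 in ethanol and 99.0 in control mice, and Serpina1a 3083 and 3045. Lower means in ethanol mice were seen for Ttr (3975 and 4480), Apob (202 and 302), Cps1 (518 and 721) and Cyp3a11 (843 and 1127). G6pc1 (36.8 and 429) was lower too, and was the marker called lower (log2 fold change -2.89). Alb (29681 and 26747), Apoa1 (5358 and 3616), Cyp2e1 (3423 and 1985) and Pck1 (882 and 684) had higher means. Most of the summed CPM came from Alb alone, with means of 93824 CPM in ethanol and 53101 CPM in control mice. Erythroid markers summed to 579 to 864 CPM in ethanol mice and 180 to 220 in control mice, with 4 of 5 tested genes higher. Skeletal muscle markers summed to 2.44 to 11.5 CPM in ethanol mice and 0.158 to 0.394 in control mice, where Atp2a1 alone was at 11, 9.70 and 1.85 CPM in ethanol mice and at most 0.0486 in control mice, while Mylpf, the other one tested, was not called (0.20), and the defining genes Acta1 and Tnnc2 were at or under 3 counts in every library. Neutrophil markers summed to 3.06 to 14.9 CPM in ethanol mice and 1.15 to 1.63 in control mice, with 4 of 5 tested genes higher, and T cell markers to 0.556 to 0.770 against 2.05 to 2.76, with 1 of 3 lower. Endothelial markers summed to 114 to 193 CPM against 134 to 148. Of these, 2 of 8 were higher (Lyve1 3.59, Cdh5 1.19) and 3 lower (Kdr -1.57, Fcgr2b -1.12, Clec4g -0.998). Stellate cell markers summed to 142 to 166 against 122 to 167, with 1 of 8 higher and 2 lower (Col3a1 -2.44), and Kupffer cell markers to 123 to 168 against 153 to 170.0, with 2 of 10 lower. Cholangiocyte markers summed to 57.6 to 75 CPM against 31.8 to 73.3, with 1 of 5 higher (Sox9, 2.78), and B cell, adipocyte and pancreas markers each had 1 lower and none higher of 5, 1 (Elovl3, -4.57) and 2 tested. Elovl3 was at 22.9 to 40.5 CPM in ethanol mice and 622 to 766 in control mice. The adipocyte markers Adipoq, Cidea, Lep and Plin1 were at most 0.294 CPM in any library and were not tested, so the fall of Elovl3 is not read as one of adipocytes. The part of these shifts in the results that follow was not tested. In whole liver, fewer cells of a type and less RNA per cell cannot be told apart.

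Relative to the bulk of liver genes, the nuclear OXPHOS genes were higher after ethanol, whereas as a share of all counts they did not rise. With TMM scaling, which sets the typical gene to no change, 90 of the 111 members tested were higher and 3 were lower in edgeR's quasi-likelihood test at a Benjamini-Hochberg adjusted p under 0.05. Among all 16717 genes tested, 21.5% were higher and 21.5% were lower. The median log2 fold change of the members was 0.65, against -0.04 for all genes tested, and the medians of the single ethanol mice relative to control were 0.67, 0.51 and 0.66. Of the members, 95 had all 3 ethanol mice above all 3 control mice and 5 had all below, where 28.0% and 31.0% of all genes did. A further 11 overlapped. When libraries were instead scaled by their total count alone, the median of the members was -0.02 and 7 were higher and 15 lower, while the median of all genes moved to -0.71, with 7.39% higher and 48.3% lower. The distance of the members from the median of all genes was thus 0.69 under either scaling, and what the scaling sets is the level called no change. All fold changes below are log2 values with TMM scaling, given with their standard error (SE), and the value with total counts alone is added where it changes the call.

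**Figure D1:**
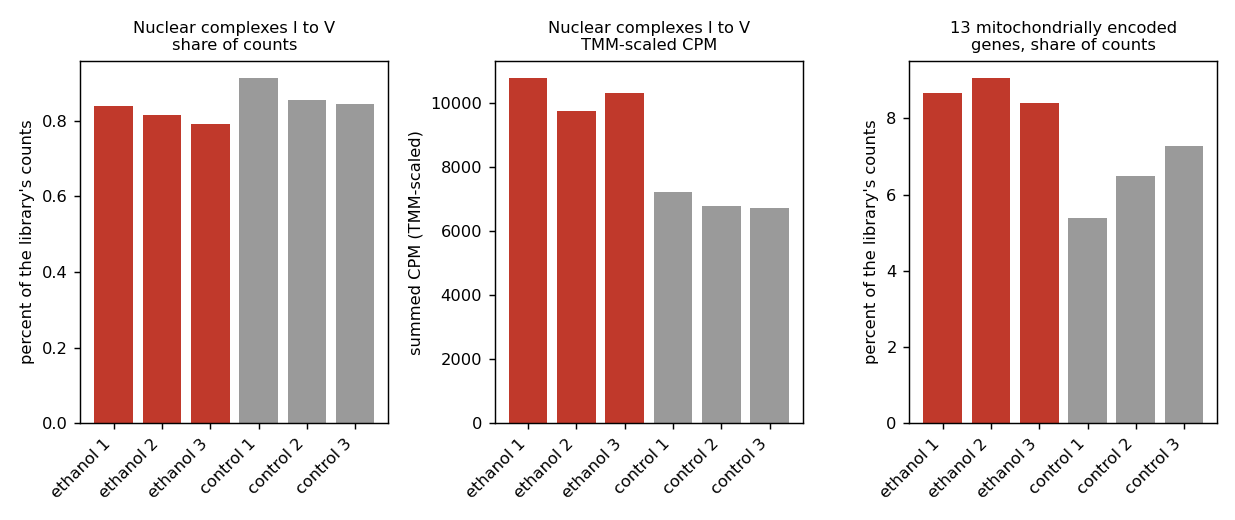
Left and middle, nuclear genes of complexes I to V in each mouse (bars: red, ethanol; grey, control), as percent of the library's counts and as summed TMM-scaled CPM. Right, the 13 mitochondrially encoded genes as percent of counts. The nuclear genes take 0.792 to 0.838% of counts in ethanol mice and 0.845 to 0.913% in control mice, whereas their TMM-scaled sum is 9747 to 10778 CPM against 6722 to 7216 CPM.

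The nuclear OXPHOS members together took 0.949, 0.927 and 0.900% of the counts of the 3 ethanol mice and 1.03, 0.978 and 0.967% of those of the control mice. The groups did not overlap on this measure, and the ethanol mice were the lower. Complex IV went the other way, with 0.126, 0.115 and 0.121% of counts in ethanol mice and 0.105, 0.101 and 0.104% in control mice. Complex II took 0.0747, 0.0766 and 0.0683% in ethanol mice and 0.106, 0.0900 and 0.0881% in control mice, and complex V took 0.316, 0.314 and 0.302% against 0.361, 0.339 and 0.330%. Complex I took 0.200, 0.191 and 0.191% in ethanol mice and 0.215, 0.206 and 0.207% in control mice. Thus the share of complex IV was higher in every ethanol mouse than in any control mouse, those of complexes I, II and V were lower, and that of complex III overlapped (0.110 to 0.121% against 0.117 to 0.126%).

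Among the members, 8 rises and 3 falls met both an adjusted p under 0.05 and a fold change beyond 1 on the log2 scale, the definition of a differentially expressed gene (DEG) used in the study, and among all genes 10.4% were upregulated and 13.8% downregulated DEGs. The 8 upregulated members were Atp6v0e, Cox7a2l, Atp6v1g1, Cox4i1, Cox6c, Uqcrq, Atp6v0b and Ndufa5, with fold changes of 1.01 to 1.65. The 3 downregulated members were Cox15, Atp6v1g2 and Atp4a. With total counts alone, none of the 8 exceeded a log2 fold change of 1, and 7 members remained higher: Atp6v0e, Cox7a2l, Cox4i1, Cox6c, Uqcrq, Cox7c and Ndufb9. These 7 were also among the 90 called higher with TMM scaling, of which 49 kept a positive value with total counts alone. The 3 downregulated members were lower under both scalings. Without ethanol mouse 1 the number of upregulated DEGs was 4, without ethanol mouse 2 it was 16, and without ethanol mouse 3 the number of members called lower was 6.

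**Figure D2:**
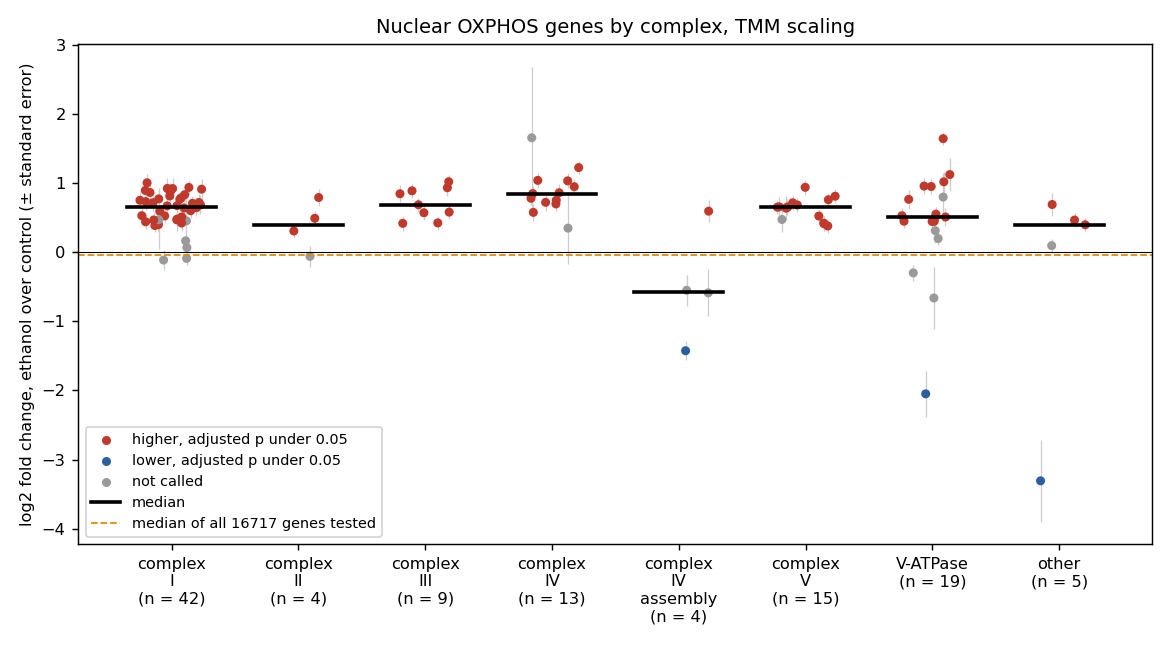
Each point is a member tested, placed by complex, with its log2 fold change (ethanol over control, TMM scaling) and standard error. Red marks genes higher and blue genes lower at an adjusted p under 0.05, black bars mark medians and the dashed line the median of all 16717 genes (-0.04). Medians of complexes I, III, IV and V lie between 0.66 and 0.85, and that of the complex IV assembly factors at -0.57. With total counts alone these medians become -0.01 to 0.18 and -1.25.

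To show the upstream sequence of members that moved in opposite directions, 130 bases before and 30 bases after the transcription start are given for 4 of them, 5′ to 3′ on the gene's strand, from RefSeq on GRCm38.p6. Capitals mark exact matches, on either strand, to CCGGAAGT (ETS family, which includes GABPA), GCGCATGCG (NRF1) or GGGCGG (SP1), factors long linked to the promoters of OXPHOS genes. Uqcr11 (complex III, chr10:80406792-80406951, minus strand) and Ndufa8 (complex I, chr2:36049309-36049468, minus strand) were among the members called higher with TMM scaling but not with total counts alone (0.26 and 0.0020), Atp6v0e (V-ATPase, chr17:26676266-26676425, plus strand) had the largest called rise, and Cox15 (complex IV assembly, chr19:43752971-43753130, minus strand) was lower.
Uqcr11: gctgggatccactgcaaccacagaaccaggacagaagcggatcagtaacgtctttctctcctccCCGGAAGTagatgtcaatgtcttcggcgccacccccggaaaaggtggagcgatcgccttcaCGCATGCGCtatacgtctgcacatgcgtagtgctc
Ndufa8: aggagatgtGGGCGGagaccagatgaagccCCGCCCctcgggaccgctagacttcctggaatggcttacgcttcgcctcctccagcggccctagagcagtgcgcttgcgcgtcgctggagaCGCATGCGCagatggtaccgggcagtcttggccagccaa
Atp6v0e: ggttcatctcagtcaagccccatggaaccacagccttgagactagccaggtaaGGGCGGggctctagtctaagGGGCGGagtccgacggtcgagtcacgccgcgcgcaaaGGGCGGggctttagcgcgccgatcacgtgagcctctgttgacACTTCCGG
Cox15: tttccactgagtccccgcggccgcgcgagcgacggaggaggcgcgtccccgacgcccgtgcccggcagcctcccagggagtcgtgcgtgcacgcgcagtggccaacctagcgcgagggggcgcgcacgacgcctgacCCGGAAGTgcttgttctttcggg

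Promoter windows of 300 bases (250 before and 50 after the start) were found for 78 of the 116 members, in 85 windows. The ETS motif was in 9.41% of the members' windows and 3.89% of all 32851 windows, NRF1 in 8.24 and 1.75%, the YY1 motif AAGATGGCG in 8.24 and 1.40%, SP1 in 52.9 and 35.7%, and the estrogen-related receptor motif TCAAGGTCA in 1.18 and 0.423%. An ETS match stands in the windows of Atp6v0e, which rose, and of Cox15, which fell. These matches are letters in a window and were not tested against the fold changes.

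Complex I takes electrons from NADH and is the largest of the chain. Of its 42 members 36 were higher and none lower with TMM scaling, with a median of 0.66, where 21.5% of all genes were higher and 21.5% lower. With total counts alone the median was -0.01, with 1 higher and 4 lower. Under that scaling 7.39% of all genes were higher and 48.3% lower, with a median of -0.71. The other 35 genes, grouped by name and mostly for accessory subunits that surround and stabilise the core, had 32 higher and a median of 0.69. They include Ndufa4, Ndufa4l2, Ndufb4b, Ndufb4c and Ndufs6b, which are not all established accessory subunits. The separate count of Dock8, which overlaps Ndufb4b on the same strand, equalled 595% of the Ndufb4b count in size. The 7 nuclear core genes, which carry the flavin and the iron-sulfur clusters, had 4 higher. Ndufa5, an accessory subunit of the matrix arm, was measured at 19.9, 16.5 and 18.8 CPM in ethanol mice and 9.14, 9.71 and 8.59 in control mice. The groups did not overlap, and the fold change was 1.01 ± 0.13 (edgeR adjusted p = 0.0012), or 0.34 with total counts alone, not called. Ndufb9, an accessory subunit at the tip of the membrane arm, was at 170, 151 and 176 CPM in ethanol mice and 87.2, 84.6 and 86.4 in control mice, a fold change of 0.94 ± 0.10 (edgeR adjusted p = 6.3e-04). It was the only complex I member still higher with total counts alone, at 0.27 ± 0.10 (edgeR adjusted p = 0.046).

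The core genes of complex I did not move as a block. Ndufv2, an iron-sulfur subunit of the NADH-binding module, was at 92.4, 86.2 and 104 CPM in ethanol mice and 59.0, 55.8 and 57.9 in control mice, a fold change of 0.71 ± 0.11 (edgeR adjusted p = 0.0021), or 0.040 with total counts alone, not called. Ndufv1, which holds the flavin, had a fold change of 0.47 ± 0.11, and Ndufs3 of 0.51 ± 0.10, and both were called higher with TMM scaling but had negative values with total counts alone (-0.20 and -0.16, neither called). The call of Ndufv1 was lost without control mouse 2 or 3 (0.46 and 0.41). Ndufs1, which carries iron-sulfur clusters of the NADH-binding module, was at 92.2, 90.4 and 75.4 CPM in ethanol mice and 109, 87.2 and 82.5 in control mice. These ranges overlap, and its fold change of -0.11 ± 0.14 was not called (edgeR adjusted p = 0.56). Ndufs7 and Ndufs8, which hold the clusters that hand electrons to coenzyme Q, had fold changes of 0.07 ± 0.09 and 0.17 ± 0.09 and were not called. With total counts alone, Ndufs1, Ndufs7 and Ndufs8 were lower (-0.78, -0.60 and -0.50), as was the acyl carrier protein gene Ndufab1 (-0.76).

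Complex II oxidises succinate and is also an enzyme of the TCA cycle. Of its 4 genes 3 were called higher with TMM scaling, with a median of 0.40, against 21.5% of all genes. With total counts alone 2 were lower, against 48.3% of all genes, and the median was -0.27. When only genes of at least 5 FPKM were fitted, 1 of the 4 was higher, against 29.3% of all genes fitted, and the median was 0.13. Sdhb, the iron-sulfur subunit, was at 239, 213 and 263 CPM in ethanol mice and 151, 131 and 131 in control mice, with no overlap and a fold change of 0.80 ± 0.12 (edgeR adjusted p = 0.0024), or 0.12 with total counts alone, not called. Sdha, the flavin subunit that binds succinate, was at 373, 368 and 291 CPM in ethanol mice and 413, 338 and 321 in control mice. The mouse groups overlap for Sdha, and its fold change was -0.06 ± 0.15, not called, or -0.72 with total counts alone, called lower. The membrane anchors Sdhc and Sdhd had fold changes of 0.31 ± 0.10 and 0.49 ± 0.10 with TMM scaling, and -0.36 and -0.17 with total counts alone, where Sdhc was called as lower and Sdhd was not called. The TMM call of Sdhc was lost without ethanol mouse 1 or any one control mouse (0.27 to 0.34).

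Complex III passes electrons from coenzyme Q to cytochrome c. All 9 members were higher with TMM scaling (median 0.69), against 21.5% of all genes. With total counts alone the median was 0.02 with 1 higher, against a median of -0.71 and 7.39% higher over all genes. Uqcrq, a small supernumerary subunit, was at 157, 137 and 157 CPM in ethanol mice and 74.9, 71.5 and 75 in control mice. Every ethanol value was above every control value, with a fold change of 1.02 ± 0.10 (edgeR adjusted p = 4.6e-04), and 0.35 ± 0.10 with total counts alone (edgeR adjusted p = 0.017). Uqcr11, another small subunit, was at 81.1, 65.2 and 84.4 CPM in ethanol mice and 38.7, 39.4 and 42.4 in control mice, a fold change of 0.94 ± 0.13, or 0.26 with total counts alone, not called. The catalytic Rieske iron-sulfur protein gene Uqcrfs1 and the core protein gene Uqcrc2 were the lowest of the complex, at 0.43 ± 0.10 and 0.42 ± 0.11, and both were at -0.24 with total counts alone, not called. Leaving out control mouse 2 or 3 ended both calls (0.39 to 0.41), as did leaving out ethanol mouse 1 or 2 for Uqcrc2 (0.39 each).

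Complex IV hands the electrons to oxygen. Its median of 0.85 was the highest of the 8 groups, and 11 of 13 tested members were higher with TMM scaling, against 21.5% of all genes. With total counts alone its median was also the highest (0.18). There 4 members were higher and none lower, against 7.39% and 48.3% of all genes. With the trend over transcript length removed the median of complex IV came second, at 0.67 against 0.70 for the V-ATPase. Cox7a2l has been linked to supercomplexes of complexes III and IV, and its function was not examined in these mice. It was at 120, 106 and 115 CPM in ethanol mice and 49.5, 49.3 and 46.3 in control mice. Its fold change was 1.23 ± 0.10 (edgeR adjusted p = 2.2e-04), and 0.56 ± 0.10 with total counts alone (edgeR adjusted p = 0.0025). Per length (FPKM, the unit that divides a count by transcript length and by library total), Cox7a2l reached 73.1, 75.4 and 76.6% of the level of its paralog Cox7a2 in ethanol mice and 57.6, 56.8 and 48.1% in control mice, a ratio within each library that total counts do not set. The paralog itself rose by less, with a fold change of 0.76 ± 0.11, and was not called with total counts alone (0.085).

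Cox4i1, a nuclear-encoded subunit of the complex, was at 327, 285 and 328 CPM in ethanol mice and 153, 151 and 152 in control mice. The control values lay close together and far under the ethanol values, and the fold change was 1.04 ± 0.10 (edgeR adjusted p = 4.7e-04). Cox6c, a small membrane subunit, was at 152, 125 and 143 CPM in ethanol mice and 69.2, 64.7 and 70.8 in control mice, a fold change of 1.04 ± 0.11 (edgeR adjusted p = 5.9e-04). Reads counted separately for the antisense neighbour Vps13b equalled 27.3% of the Cox6c count in size, and those for Emc8 10.5% of the Cox4i1 count. It is not known here if reads were assigned by strand. Cox6a1 had the highest level per length in the complex, with 247 FPKM on average in ethanol mice and 217 in control mice, and a fold change of 0.86 ± 0.12, or 0.19 with total counts alone, not called.

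The isoforms of complex IV and I made in muscle, heart, testis or hypoxic tissue were at or near 0 in all mice. Cox4i2 was counted in 1 ethanol mouse only (7 reads) and Cox6a2 in 1 control mouse only (4 reads). Cox7a1 came to 0.398 to 1.08% of Cox7a2 per length and Ndufa4l2 to 0.532 to 1.45% of Ndufa4. Cox6b2 had the largest fitted fold change of all members, 1.66 ± 1.03, but rested on at most 16 reads in any library and was not called (edgeR adjusted p = 0.23). Ndufa4 is grouped here with complex I by its name, although its product is now regarded as part of complex IV, and its fold change was 0.87 ± 0.12, or 0.20 with total counts alone, not called.

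Of the 4 complex IV assembly factors within the pathway, 1 was higher, 1 was lower and 2 were not called with TMM scaling (median -0.57). Of all genes 21.5% were higher and 21.5% lower with that scaling. Cox15, which makes the heme A of complex IV, was at 7.58, 8.80 and 8.94 CPM in ethanol mice and 25.4, 21.8 and 20.7 in control mice. It fell by 1.42 ± 0.14 on the log2 scale (edgeR adjusted p = 4e-04), and by 2.09 with total counts alone. Cox10, which acts a step earlier by making heme O, was at 5.28, 3.38 and 9.38 CPM in ethanol mice and 9.0, 9.12 and 8.94 in control mice, so that ethanol mouse 3 lay above all controls and the fold change of -0.59 ± 0.34 was not called. Cox11, which inserts copper, was at 2.82, 3.43 and 4.58 CPM in ethanol mice and 5.75, 5.16 and 4.93 in control mice, a fold change of -0.55 ± 0.23 (edgeR adjusted p = 0.087). Cox10 and Cox11 were lower as well with total counts alone (-1.27 and -1.22). Cox17, the copper chaperone, was higher at 0.60 ± 0.16 with TMM scaling and at -0.08 with total counts alone, not called. Its TMM call was lost without any one control mouse (0.58 to 0.60), and without ethanol mouse 3 Cox10 and Cox11 were lower too (-1.05 and -0.74). Antisense neighbours had separate counts of their own, equal in size to 33.2% (Cutc) and 9.34% (Entpd7) of the Cox15 count and 385% (Tom1l1) of the Cox11 count.

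Complex V makes ATP. Of its 15 members 14 were higher with TMM scaling (median 0.66), against 21.5% of all genes. None was called in either direction with total counts alone (median -0.01), where 7.39% of all genes were higher and 48.3% lower (median -0.71). Fitting only genes of at least 5 FPKM left 9 of the 15 higher (median 0.38), against 29.3% of all genes fitted. All 15 had every ethanol mouse above every control mouse in TMM-scaled CPM, as did 28.0% of all genes. Atp5f1a, the alpha subunit of the catalytic head and, with a mean of 227 FPKM in ethanol and 270 FPKM in control mice, the most abundant per length, was at 992, 940 and 951 CPM in ethanol mice and 760, 711 and 679 in control mice. Its fold change of 0.42 ± 0.10 was called with TMM scaling (edgeR adjusted p = 0.015), and it was -0.25 with total counts alone, not called. Atp5mg, a membrane subunit near the contact between paired ATP synthases, had the largest change of the complex at 0.94 ± 0.11 (0.27 with total counts alone, not called), and Atp5pb, part of the peripheral stalk, the smallest at 0.38 ± 0.10 (-0.28 with total counts alone, not called). The call of Atp5f1a was lost without control mouse 2 or 3 (0.42 and 0.38), and that of Atp5pb without ethanol mouse 1 or control mouse 2 or 3 (0.35 to 0.37).

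**Figure D3:**
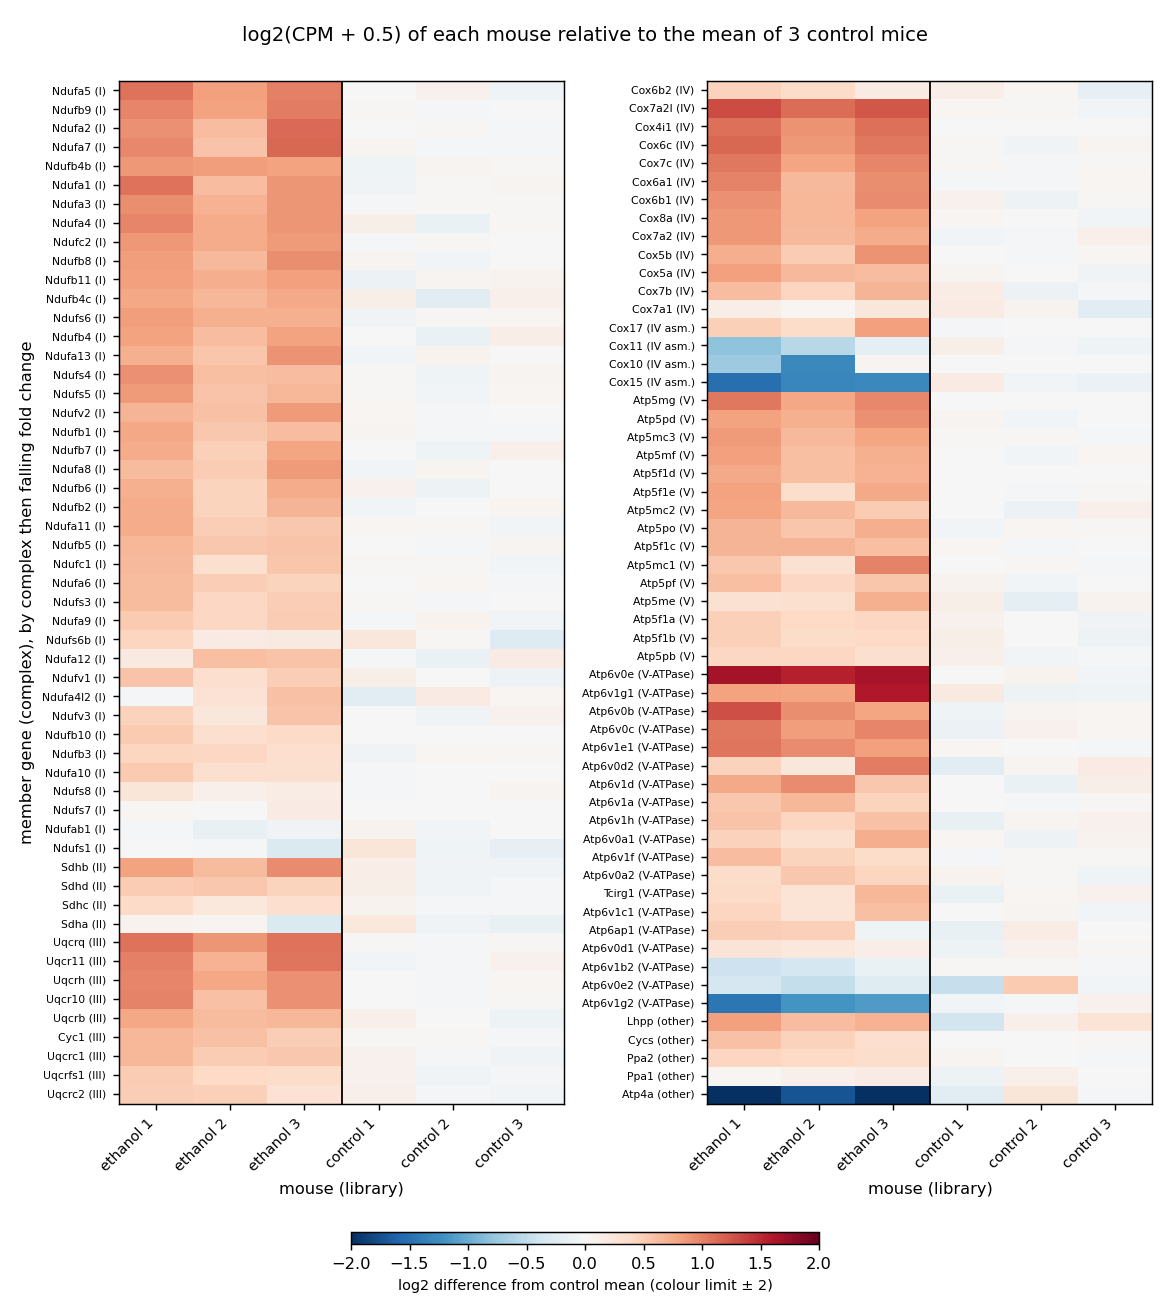
Heat map of 110 of the 111 members tested. Colour gives log2(CPM + 0.5) of each mouse relative to the mean of the 3 control mice (TMM scaling; red, higher; blue, lower; colour limit ± 2), with rows ordered by complex and then by fold change. Ethanol mouse 2 is the palest of the ethanol mice, with a median over members of 0.51 against 0.67 and 0.66, and the control mice lie near 0 (-0.01 to 0.01). With total counts alone the members' median would be -0.02.

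The V-ATPase consists of a catalytic V1 sector in the cytosol and a V0 sector in the membrane. Of 19 tested members 13 were higher and 1 lower with TMM scaling (median 0.51), against 21.5% and 21.5% of all genes. With total counts alone 1 was higher and 4 lower (median -0.16), against 7.39% and 48.3% of all genes. Among genes of at least 5 FPKM fitted alone, 7 of 14 were higher and 1 lower (median 0.27), where 29.3% of all genes fitted were higher. Atp6v0e, a small V0 subunit, was at 58.6, 54.2 and 58.3 CPM in ethanol mice and 18.1, 19.0 and 17.4 in control mice. Its groups stood far apart, with a fold change of 1.65 ± 0.10 (edgeR adjusted p = 8.6e-05), and of 0.98 ± 0.10 with total counts alone (edgeR adjusted p = 3e-04). Its paralog Atp6v0e2 was at 0.643, 0.540 and 0.715 CPM in ethanol mice and 0.543, 1.57 and 0.886 in control mice, and was not called with TMM scaling but lower (-1.33) with total counts alone. Atp6v0b, a proteolipid of the rotating ring, was at 84.0, 65.3 and 59.6 CPM in ethanol mice and 32.1, 35.6 and 35.1 in control mice, a fold change of 1.02 ± 0.15, or 0.35 with total counts alone, not called.

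The G subunits, which form the stator stalks of the V-ATPase, moved in opposite directions. Atp6v1g1, the widely expressed form, was at 54.3, 53.7 and 94.5 CPM in ethanol mice and 35, 28.7 and 29.0 in control mice. Ethanol mouse 3 was the highest, and the fold change was 1.13 ± 0.24 (edgeR adjusted p = 0.0082), or 0.45 with total counts alone, not called (edgeR adjusted p = 0.12). Atp6v1g2, known mainly from brain, was at 0.278, 0.425 and 0.476 CPM in ethanol mice and 1.54, 1.60 and 1.75 in control mice, from 16 to 26 reads against 122 to 145. It fell by 2.05 ± 0.33 on the log2 scale (edgeR adjusted p = 0.003). The separate count of the antisense neighbour Nfkbil1 equalled 508% of the Atp6v1g2 count in size. The V1 subunit Atp6v1b2 was at -0.30 ± 0.11 and not called with TMM scaling, but lower with total counts alone (-0.97) and without ethanol mouse 3 (-0.38). Of the 5 members that were not tested, 4 are alternative forms (Atp6v0a4, Atp6v1c2, Cox4i2 and Cox6a2) with at most 90 reads in any library, and the fifth, Atp6v1b1, had no read in any library.

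Of the remaining members, Cycs, which encodes cytochrome c, was at 127, 117 and 106 CPM in ethanol mice and 83.4, 83.5 and 86.0 in control mice, a fold change of 0.47 ± 0.10 (edgeR adjusted p = 0.0099), or -0.20 with total counts alone, not called, and its call was lost without control mouse 2 (0.46). The mitochondrial pyrophosphatase gene Ppa2 had a fold change of 0.40 ± 0.09 (-0.27 with total counts alone, not called), the phosphatase gene Lhpp of 0.69 ± 0.17, and the cytosolic pyrophosphatase gene Ppa1 of 0.10 ± 0.10, not called. Ppa1 was lower (-0.57) with total counts alone, where Lhpp was not called (0.03). Reads counted separately for the antisense neighbour Fgfr2 equalled 36.8% of the Lhpp count in size. Without ethanol mouse 1 Lhpp was not called either (0.63), and Ppa2 was not called without control mouse 2 or 3 (0.40 and 0.37). When only genes of at least 5 FPKM were fitted, 3 genes of this group were kept and none was called (median 0.20). Atp4a, the catalytic subunit of the gastric proton pump, was at 0.278, 0.523 and 0.0733 CPM in ethanol mice and 2.42, 3.53 and 2.84 in control mice, from 4 to 32 reads against 227 to 269. It fell by 3.31 ± 0.59 on the log2 scale (edgeR adjusted p = 0.0044), the largest fall of any member.

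Abundance and transcript length moved with the fold change over all genes, and the members are short and abundant. Among all genes with a mean of 20 to 100 FPKM the median fold change was 0.37 and 49.0% were higher, while the 56 members in that range had a median of 0.68 and 51 were higher. Above 100 FPKM the median of all genes was 0.69 and that of the 10 members 0.72, and 65.2% of all genes and all 10 members were higher. At 5 to 20 FPKM the medians were 0.68 for 29 members and 0.20 for all genes. From 1 to 5 FPKM 5 of 9 members and 21.8% of all genes were higher (medians 0.45 and -0.06). Under 1 FPKM none of 7 members and 9.01% of all genes were higher (medians 0.35 and -0.39). The 3 members called lower were all under 5 FPKM. In the shortest class, under 1000 bases, members had a median of 0.78 and all genes 0.54, and from 4000 to 8000 bases 0.51 and -0.17. With the trend over length removed 82 members were higher (median 0.54), against 23.6% of all genes, and when only genes of at least 5 FPKM were fitted 60 of 95 were higher (median 0.41), against 29.3%. The part of abundance in the members' shift was not tested further.

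**Figure D4:**
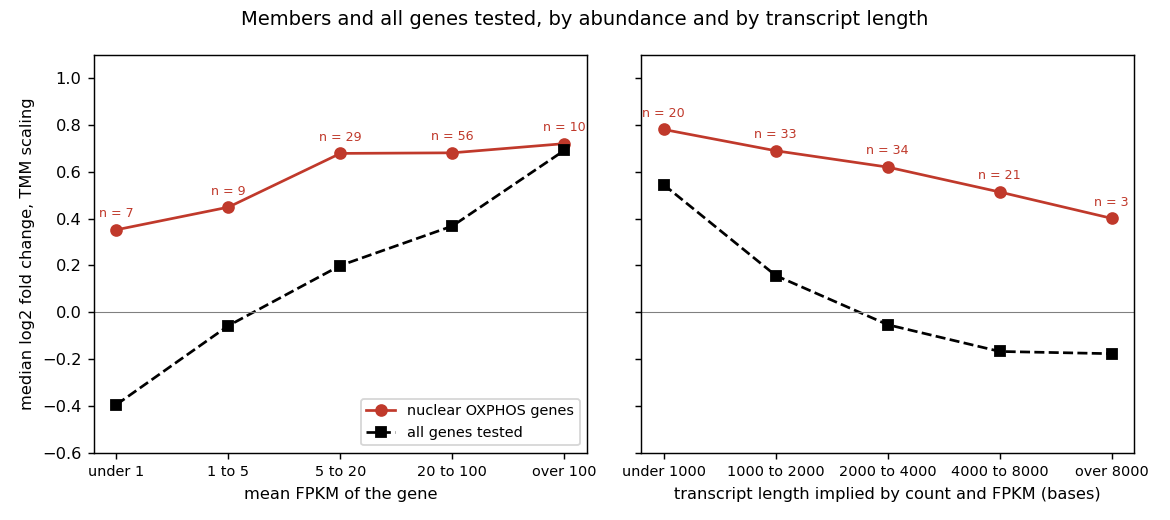
Median log2 fold change (ethanol over control, TMM scaling) of the members (red circles, n beside each) and of all genes tested (black squares), by mean FPKM (left) and by transcript length in bases implied by count and FPKM (right). Members lie above all genes in every class, at 0.72 against 0.69 above 100 FPKM and at 0.68 against 0.20 at 5 to 20 FPKM. With total counts alone the members' median is -0.02 and that of all genes -0.71.

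The 13 subunits encoded by mitochondrial DNA belong to the same complexes I, III, IV and V. All 13 were higher with TMM scaling (median 1.03, from 0.64 to 1.81, 7 of them upregulated DEGs), against 21.5% of all genes. With total counts alone 4 were higher and none lower (median 0.36), against 7.39% and 48.3% of all genes. The 13 genes took 8.67, 9.05 and 8.41% of counts in ethanol mice and 5.38, 6.49 and 7.29% in control mice. The ratio of nuclear to mitochondrially encoded counts of complexes I to V was 0.0967, 0.0900 and 0.0941 in ethanol mice and 0.170, 0.132 and 0.116 in control mice. This ratio does not depend on the scaling, and every ethanol mouse was below every control mouse.

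Other genes of the respiratory pathway were counted in lists, to be read against all genes, of which 21.5% were higher and 21.5% lower with TMM scaling (median -0.04) and 7.39% higher and 48.3% lower with total counts alone (median -0.71). Of 44 tested assembly factors outside the KEGG pathway, 4 were higher and 15 lower with TMM scaling (median -0.14), and 1 was higher and 30 lower with total counts alone. Cox19, a copper-handling factor for complex IV, was at 70.1, 64.8 and 52.4 CPM in ethanol mice and 19.2, 21.7 and 21.7 in control mice, a fold change of 1.58 ± 0.14 (edgeR adjusted p = 2.9e-04). Coa4, another complex IV factor, was at 0.243, 0.327 and 1.41 CPM in ethanol mice and 2.35, 2.61 and 3.17 in control mice. It fell by 2.04 ± 0.64 (edgeR adjusted p = 0.038), a call lost without any of ethanol mice 1 and 2 or control mice 1, 2 and 3 (fold changes of -2.14 to -1.66).

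Among 18 electron carriers, coenzyme Q synthesis genes and linked dehydrogenases, 1 of which is the member Cycs, 5 were higher and 6 lower with TMM scaling, and none was higher and 13 lower with total counts alone, where 48.3% of all genes were lower. Coq8a, needed for coenzyme Q synthesis, was at 175, 214 and 116 CPM in ethanol mice and 520, 378 and 390 in control mice, and fell by 1.35 ± 0.24 (edgeR adjusted p = 0.0044). Coq7, another enzyme of that synthesis, was highest at 0.68 ± 0.16, and at 0.01 with total counts alone, not called, and its call was lost without control mouse 1 or 3 (0.58 and 0.69). Of 13 TCA cycle genes 6 were higher and 1 lower with TMM scaling, against 2 higher and 7 lower with total counts alone. Fh1, which makes malate from fumarate, was at 578, 542 and 793 CPM in ethanol mice and 164, 151 and 151 in control mice, a fold change of 2.04 ± 0.17 (edgeR adjusted p = 2.3e-04). Idh3a, a subunit of isocitrate dehydrogenase, was the lowest at -0.42 ± 0.14 (edgeR adjusted p = 0.044), a call that held only with all mice or without ethanol mouse 3 (-0.51 to -0.35 without each of the others).

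**Figure D5:**
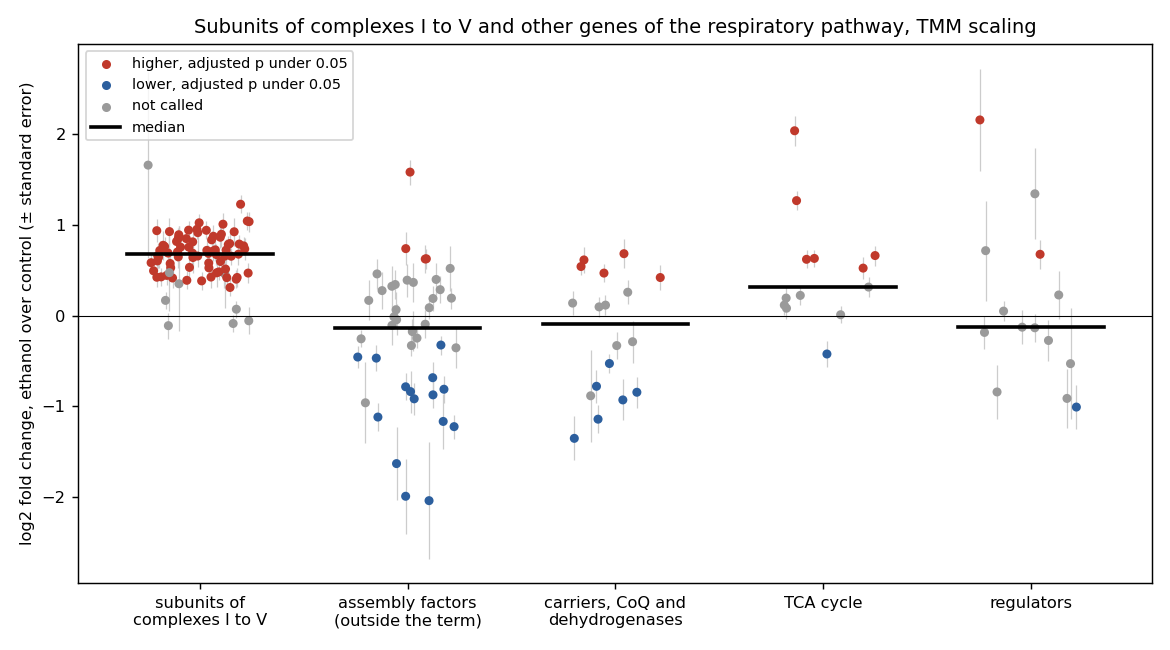
Log2 fold change (ethanol over control, TMM scaling) with standard error for the nuclear subunits of complexes I to V and for 4 lists of related genes. Red marks genes higher and blue genes lower at an adjusted p under 0.05, and black bars mark medians. The subunits have a median of 0.68 with 73 of 83 higher and none lower, the assembly factors a median of -0.14 with 4 of 44 higher and 15 lower. With total counts alone 1 assembly factor is higher and 30 are lower.

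Among 14 regulators of mitochondrial gene expression, 2 were higher and 1 lower with TMM scaling, and none was higher and 8 lower with total counts alone, against 21.5% and 21.5% of all genes with TMM scaling and 7.39% and 48.3% with total counts alone. Ppargc1b, a coactivator of mitochondrial biogenesis, was at 9.99, 8.55 and 2.03 CPM in ethanol mice and 2.06, 1.36 and 1.18 in control mice, a fold change of 2.16 ± 0.57 (edgeR adjusted p = 0.020). Ethanol mouse 3 lay within the control range, and the call was lost with total counts alone and without ethanol mouse 1 or 2 or control mouse 2 or 3 (edgeR adjusted p = 0.054 to 0.080 without a mouse). Its relative Ppargc1a was at 23.0, 22.5 and 5.46 CPM in ethanol mice and 8.32, 5.28 and 6.46 in control mice, not called at 1.34 ± 0.50 (edgeR adjusted p = 0.065), and called without ethanol mouse 3 (1.78, edgeR adjusted p = 1.6e-04). Polrmt, the mitochondrial RNA polymerase, fell by 1.01 ± 0.25 (edgeR adjusted p = 0.015), a call lost without control mouse 2 or 3 (-0.98 and -1.0). Nrf1, Esrra, Tfam, Gabpa and Yy1 had fold changes of 0.23 ± 0.26, -0.13 ± 0.15, -0.13 ± 0.19, -0.19 ± 0.18 and -0.27 ± 0.23, and none was called. Without ethanol mouse 3, Tfam, Gabpa and Yy1 were lower (-0.35, -0.36 and -0.59). Esrra, Tfam, Gabpa and Yy1 were lower with total counts alone (-0.80, -0.80, -0.86 and -0.95), where the median of all genes was -0.71.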

How the data were processed

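Liver RNA of 6 mice, 3 per group from the labels, was analysed. The authors deposited for each Ensembl gene a whole-number read count, not normalized, and beside it an FPKM value, after removing adaptor, low-quality and ambiguous reads. Aligner, counting software and strand use are not given in the sources used here. The submitters' processing notes list GRCm38 (mm10), but of 115 members found in a GRCm38 annotation only 2 share a start or end with the table, so the table's coordinates are not printed. The table has 1 value column that matches no library, and it was not used. No 2 libraries of a group were the same within counting error, with a chi-square of 53.9 to 545 for each degree of freedom.

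Counts were filtered with filterByExpr, scaled by TMM and tested with edgeR 4.0.16's quasi-likelihood test in R 4.3.3, two-sided, with Benjamini-Hochberg adjustment over 16717 genes. Replicates are separate mice, and their number limits the precision (common biological coefficient of variation 0.299). limma 3.58.1, DESeq2 1.42.0, other scalings and filters, removal of the length trend, the replicate number as a block and each library left out in turn were alternatives. Of the members, 48 overlap another gene and several have pseudogenes with up to 849 reads in a library (Atp6v0c-ps2), so part of their reads could be assigned either way. Promoter windows were RefSeq's on GRCm38.p6.

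Members, lists and alternatives were chosen with earlier results of these data known. Named genes are, per complex, the most abundant member and those with the largest and smallest fold change, the complex I core, complex II, members called lower, DEGs and tissue-specific isoforms, the extremes of each list and 6 regulators. Atp5if1, Atp6v0e2, Atp6v1b2, Cox7a2, Cox7c, Cox10, Cox11, Cycs, Ndufa4, Ndufa8, Ndufab1, Ppa2, Slc25a3, Slc25a5 and Uqcr11 fall outside this rule and were chosen after their values were seen. The values of 1 member that the rule names are not reported here.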

Additional observations from a re-analysis of the deposited data

How the results depend on the processing

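The count of members higher lay between 69 and 91 over all alternatives other than library size alone, limma on FPKM and the minimum of 5 FPKM. With library size alone, 7 members were higher and 15 lower, 0 were upregulated and 6 downregulated DEGs, and the median log2 fold change was -0.024. limma on log2(FPKM + 1) gave 10 higher and 16 lower, 0 upregulated and 1 downregulated DEG and a median of -0.021, and with a pseudocount of 0.1 it gave 10, 16, 0 upregulated and a median of -0.022. FPKM is itself scaled to the library total, and neither setting corrects for composition. Upper quartile factors gave 5 lower, 3 upregulated and a median of 0.55. The median was 0.54 with the length trend removed and 0.41 with at least 5 FPKM, where 60 of 95 members were higher and 3 lower (2 of complex I and 1 of the V-ATPase, none of them the 3 lower in the reported fit), 1 was an upregulated and 0 a downregulated DEG. This minimum gave 26 of 39 higher (median 0.41) in complex I, 7 of 9 (0.42) in complex III and 10 of 11 (0.58) in complex IV, against 29.3% of all genes fitted. No filter on low counts and DESeq2 each gave 5 upregulated DEGs. With a library left out, 69 to 91 members were higher, 3 to 6 lower, 4 to 16 upregulated and 3 to 4 downregulated, with medians of 0.62 to 0.70. The same-numbered mice did not deviate together (correlations of -0.04, -0.03 and -0.01). With 3 mice per group these values give no sign of pairing by number but cannot exclude it. With the replicate block 81 members were higher and 3 lower (median 0.64), and with the replicate block and the length trend removed 74 were higher (median 0.54). The block kept 81 of the 90 higher calls, and of the genes in the naming rule it ended those of Cox17, Atp5pb, Sdhc and Idh3a (edgeR adjusted p of 0.051 to 0.094). For the low gene Cox6b2 depth is a limit.

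Of the 90 members called higher, 49 stayed positive with library size alone. Genes in the naming rule changed sign as follows, and the cause was not tested beyond the construction of each setting. With library size alone, Sdhd was at -0.17, Uqcrfs1 -0.24, Atp5f1a -0.25, Ppa1 -0.57, Cox17 -0.076, Uqcrc2 -0.24, Cox7a1 -0.32, Atp5pb -0.28, Ndufs3 -0.16, Ndufs7 -0.60, Ndufs8 -0.50, Ndufv1 -0.20, Sdhc -0.36, Ndufa4l2 -0.21 and Nrf1 -0.45, and of the other genes described Cycs was at -0.20, Ppa2 -0.27, Slc25a5 -0.072 and Atp5if1 -0.57. With limma on log2(FPKM + 1), Sdhd was at -0.17, Uqcrfs1 -0.24, Atp5f1a -0.25, Ppa1 -0.56, Cox17 -0.050, Uqcrc2 -0.25, Atp5pb -0.28, Ndufs3 -0.16, Ndufs7 -0.58, Ndufs8 -0.49, Ndufv1 -0.20 and Sdhc -0.35. With a pseudocount of 0.1 the same 12 genes were at -0.18, -0.24, -0.25, -0.57, -0.083, -0.25, -0.29, -0.16, -0.60, -0.50, -0.20 and -0.36. With the length trend removed, Ndufs1 was at 0.075, Sdha 0.11, Cox7a1 -0.10, Esrra 0.034 and Tfam 0.036, and with the replicate block as well 0.077, 0.10, -0.032, 0.019 and 0.0085. With at least 5 FPKM, Ppa1 was at -0.17, Ndufs7 -0.20 and Ndufs8 -0.10. Upper quartile factors put Ndufs7 at -0.026. With a library left out, Ndufs1 was at -0.19 to 0.016 (positive without control mouse 1), Sdha at -0.13 to 0.063 (positive without control mouse 1 or ethanol mouse 3), Nrf1 at -0.036 to 0.42 (negative without ethanol mouse 3) and Tfam at -0.35 to 0.020 (positive without ethanol mouse 2).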

Other observations

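Of 7 tested genes for uncoupling and ATP handling outside the pathway, 3 were higher with TMM scaling and none with library size alone, where 1 was lower. Over all genes, 21.5% were higher and 21.5% lower with TMM scaling, against 7.39% and 48.3% with library size alone. Ucp2, an uncoupling protein, was at 26.5, 23.7 and 46.9 CPM in ethanol mice and 11.7, 16 and 15.3 in control mice, a log2 fold change of 1.17 ± 0.27 (edgeR adjusted p = 0.013) that was not called without control mouse 1 (1.05) or with library size alone (0.50). The adenine nucleotide carrier gene Slc25a5 and the phosphate carrier gene Slc25a3 were at 0.59 ± 0.10 and 0.88 ± 0.22, both called with TMM scaling, that of Slc25a3 not without any one control mouse (0.87 to 0.89). Neither was called with library size alone (-0.072 and 0.23). Atp5if1, the inhibitor of ATP synthase, was at 0.11 ± 0.17 and not called, but lower with library size alone (-0.57). The mitochondrial creatine kinase gene Ckmt1, at most 27 reads in any library, was lowest at -1.46 ± 1.39 and not called.

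Of 6 long RNAs that are kept mainly in the nucleus or not translated, 3 were higher and 1 lower with TMM scaling, and none was higher and 1 lower with library size alone. The shares over all genes were 21.5% higher and 21.5% lower with TMM scaling, and 7.39% and 48.3% with library size alone. Malat1 was at 1.27 ± 0.34 (edgeR adjusted p = 0.021), a call lost without ethanol mouse 1 or 2 or any one control mouse (1.02 to 1.29) or with library size alone (0.62), and Neat1 was at -2.26 ± 0.16 (edgeR adjusted p = 1.6e-04).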
